A study of Mus musculus with 6 samples.

Results

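Ubiquitin-specific proteases (USPs) were compared between mouse embryonic stem (ES) cells in which the gene of the cohesin subunit Scc1, now named Rad21, could or could not be excised. A gene was a member where a probe set of the array carried its symbol alone and that symbol was Usp followed by a number and at most 1 letter. Usp18, Usp29 and the Usp17-like genes were left out by that rule. It found 47 members among 19938 measured genes, and 3 of them (Usp24, Usp31 and Usp54) had more than 1 probe set. The gene table holds 48 such genes, and the remaining member, Usp49, shared its probe set with Med20.

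USPs are the largest family of deubiquitinases, the enzymes that cut ubiquitin off proteins. Most are cysteine proteases. By removing ubiquitin they can spare a protein from the proteasome, or erase a signal such as monoubiquitin on histone H2A or H2B. In dividing stem cells they are known for control of chromatin, p53, Myc, DNA repair and receptor traffic.

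RNA of 6 cultures, the biological replicates of the study, was hybridised to arrays of the type Affymetrix Mouse Gene 1.0 ST. Of the cultures 3 carried Scc1 wt/wt ERT2-Cre and the other 3 the floxed genotype Scc1 lox/lox ERT2-Cre. All cells were female, of mixed C57BL/129 background, derived and grown in 2i with LIF in N2B27, and all had 24 h of 4-OHT at 80 nM, as the sample labels give the dose. ERT2-Cre is a recombinase that 4-OHT brings into the nucleus, so both groups held active Cre and differed in whether Scc1 could be excised. Cultures without 4-OHT were not analysed here, so what the genotypes differed in before treatment and what followed from excision cannot be told apart, and how many clones each genotype came from is not given in the sources used here. Values are log2 intensities, so a difference of 1 is a doubling, and an array's median value lay near 4.90. Levels of different probe sets are not compared with each other.

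Rad21 stood at 10.05, 9.99 and 10.01 in wt/wt replicates 1 to 3 and at 6.08, 6.06 and 6.14 in lox/lox replicates 1 to 3, which is 15.2-fold lower. The 10 ES cell markers all lay above the array median in wt/wt cells, with 1 higher and 3 lower in lox/lox cells, and 4 Y-linked genes lay between 2.85 and 3.78 on every array. Among the 9 fibroblast, 10 primitive endoderm, 8 trophectoderm and 6 neural markers, 3 passed the test described below, all lower in lox/lox cells. The trophectoderm markers averaged 5.75 to 5.84 on the wt/wt and 5.57 to 5.65 on the lox/lox arrays, and the fibroblast markers 4.75 to 4.97 and 4.84 to 4.97. Their part in the results on USPs was not tested. After the group means were subtracted, wt/wt replicate 2 and lox/lox replicate 3 stood apart from the other arrays on the first principal component (loadings of -0.576 and -0.537 against 0.101 to 0.475). Lox/lox replicate 3 was the highest lox/lox array in 35 of the 47 USP genes (74.5%) and in 40.3% of all genes (51.8% of those with a mean above 4.90), so results are also given without these arrays.

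Of the 47 USP genes 6 differed between the genotypes, in both directions, and 41 did not pass the test. Usp26 and Usp44 were higher in lox/lox cells, and Usp13, Usp9x, Usp3 and Usp46 were lower, at a Benjamini-Hochberg adjusted p under 0.05 in limma over all genes. That is 12.8% of the members, beside 6.16% of all genes tested (2.55% higher and 3.61% lower). Dim genes are called less often, and most USP genes are not dim: among genes whose mean lay above 4.90, 5 of 41 USP genes (12.2%) and 10.0% of all genes were called. How far the members' share lies above the background differed with the fit. With the genes at or below that mean left out before the fit, 10 of 41 USP genes (24.4%) and 12.5% of all genes were called. Among these 10, Usp25 was kept only through its lox/lox level, as its wt/wt mean was 4.79. With trended robust variances the shares called were 9 of 47 (19.1%) and 7.64%. In RNA of whole cultures, fewer cells that express a gene and less of its RNA per cell cannot be told apart.

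Small shifts were more common than calls. The arrays of the genotypes did not overlap in 19 members (40.4%), 8 higher and 11 lower in lox/lox cells, beside 22.8% of all genes (10.1% higher and 12.7% lower). Above the mean of 4.90 these shares were 39.0% and 31.2%. An unadjusted p under 0.05 was reached by 17 members (36.2%) and by 18.0% of all genes, and above that mean by 36.6% and 26.1%. Usp25 counts in the members' shares above that mean only through its lox/lox level, as its wt/wt mean was 4.79. It gives these shares no independent support. The median log2 change of the 47 members was -0.056, beside -0.008 for all genes, and 29 of 47 were below 0 (61.7%, beside 52.5% of all genes). In size the median change was 0.16 for USP genes and 0.09 for all genes (0.17 and 0.11 above the mean of 4.90). A change of less than 0.2 either way was seen in 28 members. Replicates spread about as much in USP genes as elsewhere, with a median SD over the wt/wt arrays of 0.100, and over the lox/lox arrays of 0.105, against 0.099 and 0.097.

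**Figure D1:**
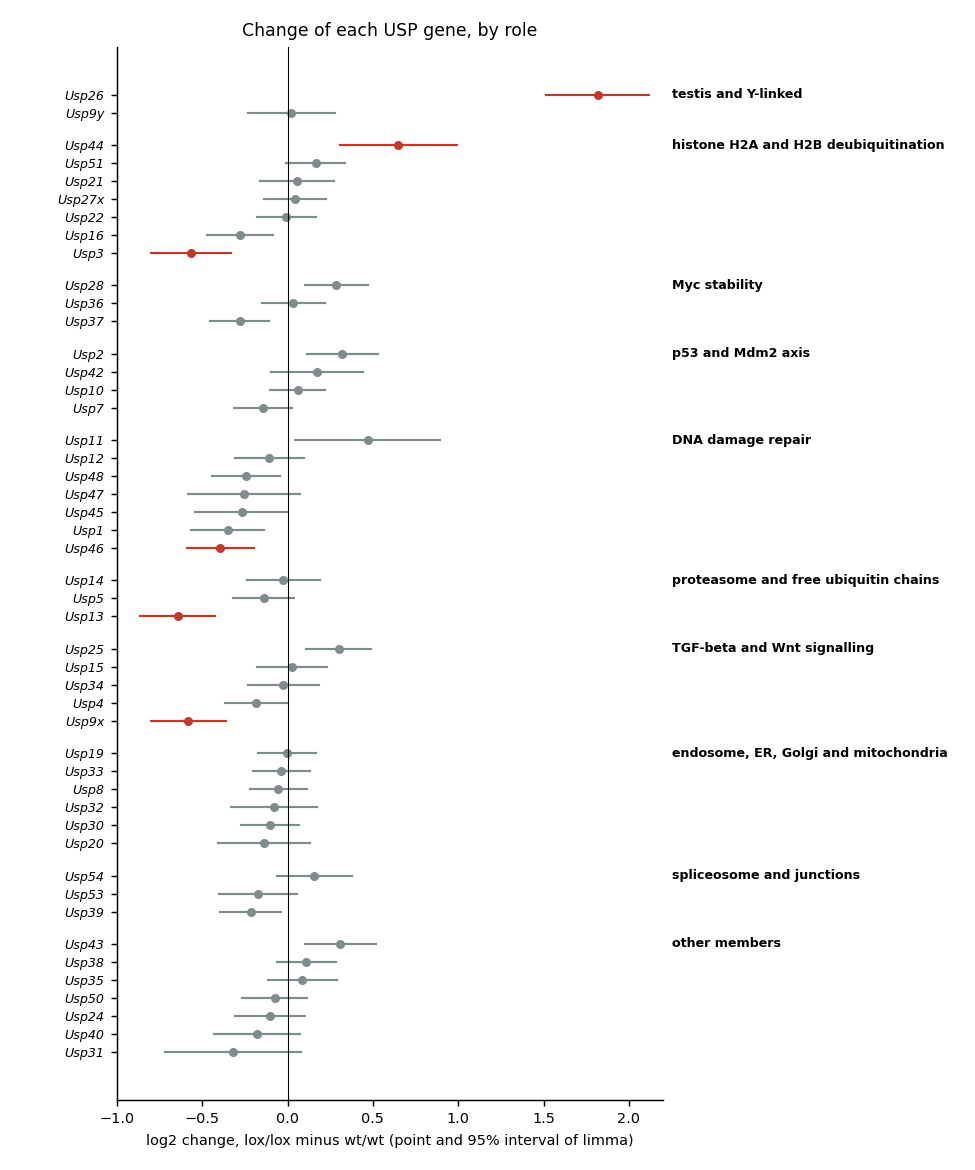
Log2 change (lox/lox minus wt/wt, horizontal axis) of the 47 USP genes, grouped by role, as a point with the 95% interval of limma, red where the adjusted p was under 0.05. Usp26 stands alone at 1.82, the other members lie between -0.65 and 0.65, and red points fall on both sides of 0.

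Where RefSeq gives a start site, the bases before it were read for the called members. An entry was found for 36 of the 47 members, and 250 bases before the start on the gene's strand were used (build GRCm38.p6). Usp9x and Usp44 have none in the table. The sequences of the higher Usp26 and the lower Usp13, Usp3 and Usp46 are shown to set a promoter of low CpG content against those of high CpG content. Capitals mark CCAAT and GGGCGG on either strand (CCGCCC and ATTGG are the same motifs read on the opposite strand), letters chosen after the values were seen. They are the cores that NF-Y and Sp1 are known to bind.
Usp26, chrX:51801234-51801483, minus strand: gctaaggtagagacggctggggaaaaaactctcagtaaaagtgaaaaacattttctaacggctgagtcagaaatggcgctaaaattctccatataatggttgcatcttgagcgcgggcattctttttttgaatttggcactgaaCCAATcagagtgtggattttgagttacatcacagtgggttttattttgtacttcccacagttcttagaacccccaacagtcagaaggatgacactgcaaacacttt
Usp13, chr3:32817376-32817625, plus strand: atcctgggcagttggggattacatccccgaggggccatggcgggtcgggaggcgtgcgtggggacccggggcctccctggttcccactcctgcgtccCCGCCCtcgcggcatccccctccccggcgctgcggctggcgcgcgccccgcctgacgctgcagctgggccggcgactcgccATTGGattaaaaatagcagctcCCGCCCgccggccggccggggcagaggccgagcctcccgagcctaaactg
Usp3, chr9:66593116-66593365, minus strand: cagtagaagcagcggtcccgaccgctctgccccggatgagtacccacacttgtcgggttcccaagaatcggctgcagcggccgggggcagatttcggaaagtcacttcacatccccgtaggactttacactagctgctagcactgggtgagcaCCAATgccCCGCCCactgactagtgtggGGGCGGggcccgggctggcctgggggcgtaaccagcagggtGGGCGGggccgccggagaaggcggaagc
Usp46, chr5:74068412-74068661, minus strand: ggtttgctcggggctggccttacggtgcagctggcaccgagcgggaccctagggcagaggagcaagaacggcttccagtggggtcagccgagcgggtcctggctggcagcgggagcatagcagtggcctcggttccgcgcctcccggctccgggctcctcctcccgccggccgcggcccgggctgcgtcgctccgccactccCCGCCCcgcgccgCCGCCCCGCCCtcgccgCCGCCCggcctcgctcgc

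The stretch before Usp26 held 5 CpG dinucleotides at 41.2% G and C, with 1 CCAAT and 0 GGGCGG. Those before Usp13, Usp3 and Usp46 held 28, 18 and 33 CpG at 73.6%, 66.0% and 77.6% G and C, and 2, 3 and 4 copies of GGGCGG, of which 2 in Usp46 share 1 base. CCAAT was found 1 time each before Usp13 and Usp3 and 0 times before Usp46. The members spread widely, and 9 of the 36 held 2 to 9 CpG, Usp26 among them. Over the 36 members the median was 24 CpG and 65.4% G and C, against 11 and 56.4% over 15614 measured genes. GGGCGG was found in 25 of the 36 (69.4%) and in 46% of promoters of measured genes, and CCAAT in 7 (19.4%) and in 35.5%. CACGTG, the core bound by Myc with Max, was found in the promoters of Usp4, Usp16 and Usp31 alone (8.33%, against 7.03% of measured genes), and in none of the 4 called members with an entry. These letter matches describe the sequence only.

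The largest difference of the family was in Usp26, an X-linked gene known for expression in testis. It stood at 6.26, 6.02 and 5.69 in wt/wt replicates 1 to 3 and at 7.69, 7.77 and 7.96 in lox/lox replicates 1 to 3. Every lox/lox array was more than 1 log2 unit above every wt/wt array. The change was 1.82 (SE 0.135, 95% interval 1.52 to 2.12, adjusted p = 7.75e-05 in limma), or 3.52-fold. It lay between 1.67 and 1.95 when any array was left out. Its level was above the array median already in wt/wt cells. The other germline-linked member, the Y-linked Usp9y, is a check on the sex of the lines. It read 3.18 to 3.59 in wt/wt and 3.27 to 3.44 in lox/lox cells, where the other Y-linked genes lay too, with a change of 0.02 (95% interval -0.23 to 0.28).

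Of the 7 measured USPs of ubiquitinated histones H2A and H2B, Usp3 was lower, Usp44 was higher and 5 did not pass. The share called was 28.6%, beside 6.16% of all genes and 10.0% of those with a mean above 4.90. Usp3, a chromatin enzyme that removes ubiquitin from H2A and H2B and acts in the DNA damage response, read 8.10, 7.88 and 7.96 in wt/wt and 7.30, 7.32 and 7.62 in lox/lox replicates 1 to 3. The groups did not overlap, with lox/lox replicate 3 nearest to wt/wt. Its change was -0.57 (SE 0.105, adjusted p = 0.0101), and without lox/lox replicate 2 it did not pass (adjusted p = 0.0595).

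Usp44, which acts on H2B and is known as a brake on mitotic exit and for a fall when ES cells differentiate, moved the other way from a level below the array median. It read 4.65, 4.22 and 4.16 in wt/wt and 4.69, 5.11 and 5.17 in lox/lox replicates 1 to 3. The highest wt/wt and the lowest lox/lox array, both replicate 1, nearly met. The change was 0.65 (SE 0.15, adjusted p = 0.0331), and it did not pass without wt/wt replicate 2 or 3 (adjusted p = 0.103 and 0.137) or lox/lox replicate 2 or 3 (0.144 and 0.12).

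Usp16, an H2A deubiquitinase needed in mitosis and stem cell differentiation, had no overlap between genotypes (7.40 to 7.61 in wt/wt, 7.11 to 7.28 in lox/lox cells), but its change of -0.28 did not pass (adjusted p = 0.102). Usp22, the H2B deubiquitinase of the SAGA coactivator complex, read 8.90, 8.87 and 8.75 in wt/wt and 8.82, 8.79 and 8.88 in lox/lox cells. Those groups overlapped fully, and the interval of the change ran from -0.18 to 0.16. Usp27x and Usp51, which use the same partners as Usp22, had changes of 0.04 and 0.16, and the latter was read below the array median. Of the partners, Atxn7l3 and Eny2 had changes of 0.03 and 0.16 and did not pass, while Atxn7l2, a relative of the SAGA subunit Atxn7, was higher (0.34, adjusted p = 0.0415). Atxn7l2 passed in only 1 of the 6 fits that left out an array. Usp21, another H2A deubiquitinase, had a change of 0.05.

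**Figure D2:**
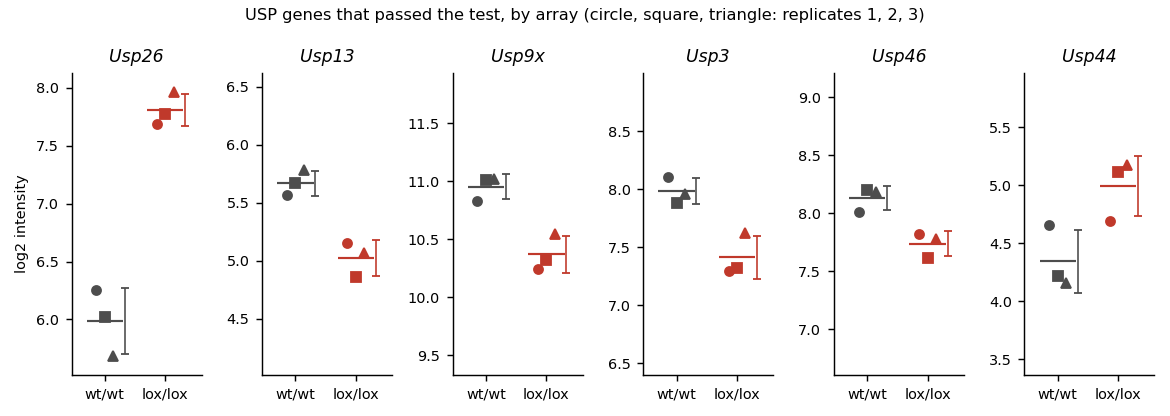
Log2 intensity (vertical axes, each spanning the same range of 2.6) of the 6 USP genes that passed, with a symbol for each replicate, a line at the mean and a bar of 1 SD for wt/wt (grey) and lox/lox (red). The groups do not overlap in any of the 6 panels, by a wide margin in Usp26 and a narrow gap in Usp44.

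Usp9x was lower, in the group known for TGF-beta and Wnt signalling. It is a large X-linked enzyme that keeps Smad4 free of monoubiquitin and stabilises Mcl1. It read 10.83, 11.01 and 11.02 in wt/wt and 10.24, 10.32 and 10.55 in lox/lox replicates 1 to 3. All lox/lox arrays lay below all wt/wt arrays, and the change of -0.58 (SE 0.10, adjusted p = 0.00633) passed in each fit without an array (adjusted p up to 0.0402). Smad4 itself was also lower (-0.43, SE 0.09, adjusted p = 0.0167), and 3 of the 6 fits without an array lost that call. They lacked lox/lox replicate 1, lox/lox replicate 2 (adjusted p = 0.0842) or wt/wt replicate 2. Of the other 4 members of the group none passed in limma, with 2 at an unadjusted p under 0.05, which 18.0% of all genes reached. Usp4 and Usp15 are close paralogs with roles in TGF-beta receptor and Smad control. Usp4 read 8.49 to 8.59 in wt/wt and 8.27 to 8.48 in lox/lox cells, without overlap, at a change of -0.19 (adjusted p = 0.27), and Usp15 had one of 0.03. Usp34, which acts on axin, had a change of -0.03. Usp25, which acts on tankyrases and is the paralog of Usp28, read 4.71 to 4.90 in wt/wt and 4.99 to 5.18 in lox/lox cells (change 0.30, adjusted p = 0.0774). It passed with dim genes removed (0.0473). Its wt/wt mean of 4.79 was below the limit of 4.90, so it stayed in that fit only through its lox/lox level, and the pass is no independent support.

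Usp13 was lower among the 3 enzymes of free ubiquitin chains and the proteasome. It is a relative of Usp5, known for its part in degradation at the endoplasmic reticulum. It read 5.56, 5.66 and 5.78 in wt/wt and 5.15, 4.85 and 5.06 in lox/lox replicates 1 to 3, a change of -0.65 (SE 0.10, adjusted p = 0.00342). The groups stood apart, and it passed in each fit without an array (adjusted p up to 0.0226). Usp5, which takes apart unanchored chains, had no overlap either (9.16 to 9.25 in wt/wt, 8.98 to 9.14 in lox/lox cells) at a change of -0.14 that did not pass (95% interval -0.32 to 0.04). Usp14, which trims chains on the proteasome, had a change of -0.02 (95% interval -0.24 to 0.19).

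Usp46 was lower in the group listed under DNA repair. It stands there with Usp12 beside Usp1, and all of them work with the activator Wdr48. Among Usp1, Usp12 and Usp46, repair targets are named here for Usp1 alone, which removes ubiquitin from Fancd2 and PCNA. Usp46 read 8.01, 8.20 and 8.19 in wt/wt and 7.82, 7.62 and 7.77 in lox/lox replicates 1 to 3. The groups did not overlap, with a gap about as wide as the range of the wt/wt arrays. Its change of -0.39 (SE 0.09, adjusted p = 0.0265) did not pass without wt/wt replicate 2 or 3 (adjusted p = 0.0848 and 0.112) or lox/lox replicate 2 or 3 (0.122 and 0.0558). Its paralog Usp12 had a change of -0.11 (95% interval -0.31 to 0.10).

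Usp1 read 8.62, 8.95 and 8.74 in wt/wt and 8.47, 8.32 and 8.46 in lox/lox replicates 1 to 3, and its change of -0.35 just missed the threshold (adjusted p = 0.0648). Its adjusted p was 0.0362 with wt/wt replicate 1 left out, 0.0424 with dim genes removed, 0.0212 with trended robust variances and 0.0342 with array weights. The shared activator Wdr48 had a change of -0.002 and the further partner Wdr20 one of -0.10. Among the targets, Fancd2 had a change of -0.11, Fanci one of -0.30 (adjusted p = 0.115) and Pcna one of -0.12, and none of these passed.

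The remaining members of the repair group did not pass. Usp48 read 9.68 to 9.91 in wt/wt and 9.52 to 9.68 in lox/lox cells, so that the groups just met (change -0.24, adjusted p = 0.173). Usp45, which acts on Ercc1, and Usp47, which acts on DNA polymerase beta, had changes of -0.27 and -0.26, in both of which lox/lox replicate 3 read inside the wt/wt range. Usp11, an X-linked enzyme of homologous recombination, had the widest spread of lox/lox arrays. It read 5.49, 5.31 and 5.07 in wt/wt and 5.32, 5.76 and 6.20 in lox/lox replicates 1 to 3, a change of 0.47 (SE 0.19, adjusted p = 0.221). It passed without lox/lox replicate 1 (change 0.69, adjusted p = 0.0339).

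Enzymes that stabilise Myc were compared because Myc itself was higher in lox/lox cells (change 1.11, adjusted p = 0.000633). None of the 3 passed in limma, with 2 at an unadjusted p under 0.05 (66.7%), in opposite directions. Such a p was reached by 18.0% of all genes and by 26.1% of those with a mean above 4.90. Usp28, which opposes the ubiquitin ligase subunit Fbxw7 on Myc, read 8.60, 8.59 and 8.59 in wt/wt and 8.80, 8.83 and 9.02 in lox/lox replicates 1 to 3. Its change was 0.29 (SE 0.08, adjusted p = 0.0763), and it passed under 4 of the alternatives, such as quantile normalization (adjusted p = 0.029) and cyclic loess (0.0298). Usp37, which acts on Myc, cyclin A and the cohesin release factor Wapl, read 7.91, 8.02 and 8.04 in wt/wt and 7.67, 7.67 and 7.79 in lox/lox replicates 1 to 3. Here the lox/lox arrays were the lower ones, with a change of -0.28 (SE 0.08, adjusted p = 0.0678). It passed with dim genes removed (adjusted p = 0.0388), trended robust variances (0.0379) and array weights (0.0237). Usp36, the nucleolar enzyme of Myc, had a change of 0.03, and Wapl one of 0.02.

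None of the 4 enzymes of the p53 and Mdm2 axis passed in limma, with 1 at an unadjusted p under 0.05. Usp7, which stabilises both Mdm2 and p53, read 10.42, 10.52 and 10.44 in wt/wt and 10.26, 10.30 and 10.39 in lox/lox replicates 1 to 3. The groups did not overlap, yet the change of -0.14 (95% interval -0.31 to 0.03) did not pass (adjusted p = 0.383). Usp2, an enzyme of Mdm2 and cyclin D1, read 5.41 to 5.69 in wt/wt and 5.81 to 5.97 in lox/lox cells (change 0.32, adjusted p = 0.0775), and passed with dim genes removed (0.0495) and array weights (0.0349). Usp10 and Usp42, which act on p53, had changes of 0.06 and 0.17. Mdm2 was higher (0.38, SE 0.09, adjusted p = 0.0306), though in only 2 of the 6 fits without an array. Daxx, a partner of Usp7, was lower (-0.28, adjusted p = 0.0481), and in none of those fits (adjusted p of 0.0587 to 0.17). G3bp2, a stress granule protein of the family that binds Usp10, was lower at -0.60 (SE 0.09, adjusted p = 0.00304) and passed in all 6 of them.

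The 6 enzymes of endosome, endoplasmic reticulum, Golgi and mitochondria had the smallest changes of the role groups, with a median size of 0.07. None passed in limma and 0 had an unadjusted p under 0.05, beside 18.0% of all genes. Their changes ran from -0.14 in Usp20 to -0.003 in Usp19. Usp8, the endosomal enzyme that recycles receptors, read 8.11 to 8.14 in wt/wt and 7.99 to 8.13 in lox/lox cells, and the interval of its change was -0.22 to 0.11. Usp30, which sits on the outer mitochondrial membrane and opposes Parkin, had a change of -0.10, Usp32 one of -0.08 and Usp33 one of -0.04.

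In the last groups no gene passed in limma, and Usp39 and Usp43 had an unadjusted p under 0.05, which 18.0% of all genes reached. Usp39, a spliceosome component without protease activity, read 9.27 to 9.44 in wt/wt and 9.07 to 9.20 in lox/lox cells, without overlap (change -0.22, adjusted p = 0.174). Usp43, read below the array median, stood at 3.96 to 4.22 in wt/wt and 4.27 to 4.44 in lox/lox cells (change 0.31, adjusted p = 0.0911), and it passed without wt/wt replicate 1 (adjusted p = 0.0339). Usp53, found at tight junctions, had a change of -0.17. Usp54 had one of 0.16, and its other probe set read -0.11, so that its direction is not settled. Usp31 had changes of -0.32 and -0.36 on its probe sets. On the brighter the replicates spread widely (an SD of 0.26 over the wt/wt and 0.37 over the lox/lox arrays). On the other these SDs were 0.20 and 0.08, and the groups did not overlap. That change did not pass in limma over all probe sets (unadjusted p = 0.0168, adjusted p = 0.213). The rest, Usp24, Usp35, Usp38, Usp40 and Usp50, had changes from -0.18 to 0.11.

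**Figure D3:**
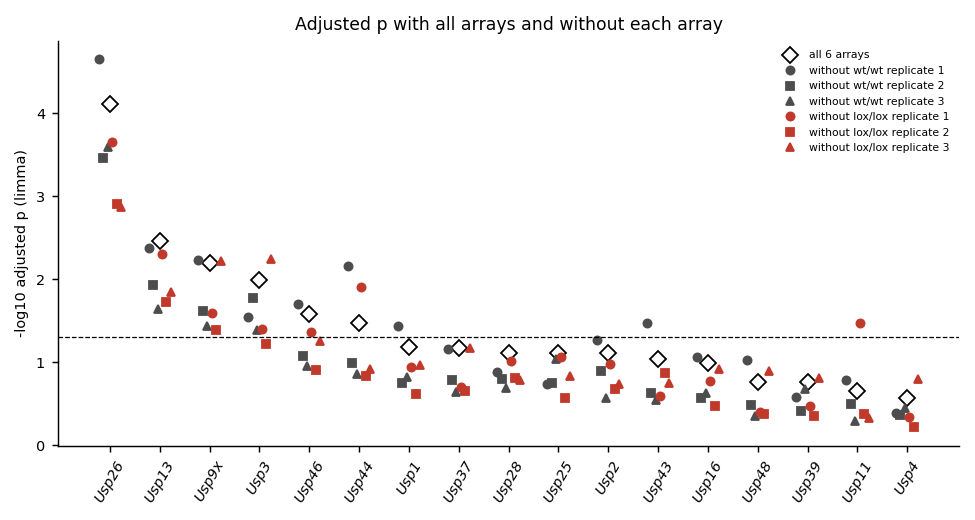
Adjusted p of limma on a -log10 scale (vertical axis) for the 17 USP genes with an unadjusted p under 0.05, with all 6 arrays (open diamond) and without each array in turn, and a dashed line at 0.05. Usp26, Usp13 and Usp9x stay above the line in every fit, Usp3 in 5 of 6, and Usp46 and Usp44 in 2 of 6 each.

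The calls differed in how far they rested on single arrays. Usp26, Usp13 and Usp9x passed in each of the 6 fits without an array. The number of called members was 4 (8.51%) when wt/wt replicate 2 or 3 was left out, beside 4.04% and 3.32% of all genes. It was 3 (6.38%, beside 3.14% of all genes) when lox/lox replicate 2 was left out. Without wt/wt replicate 1, lox/lox replicate 1 or lox/lox replicate 3 it was 8, 7 and 5 (17.0%, 14.9% and 10.6%). The shares of all genes in those fits were 5.68%, 4.49% and 5.16%, so the calls over all genes changed with the arrays too. A fit lacking both wt/wt replicate 2 and lox/lox replicate 3, added once the data had been seen, called 4 members, namely Usp26, Usp13, Usp9x and Usp3. Usp47 was called in the fit without lox/lox replicate 3.

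Cohesin is known for folding chromosomes into loops that span neighbouring genes, so the 5 measured genes on each side of each called member were listed. Of these 60 neighbours 7 were called (11.7%), beside 6.16% of all genes. Next to Usp26, Hs6st2, a heparan sulfate sulfotransferase gene, was also higher (change 1.28, adjusted p = 0.00044), from a wt/wt level of 3.69 that is below the array median. A few genes away Gpc3, a glypican gene, was lower (-0.79, adjusted p = 0.00192), and the other 8 neighbours did not pass. They include the gene adjacent on the other side, 1700080O16Rik, with a change of -0.42 (adjusted p = 0.0504). Next to Usp9x, the gene model AA414768 was lower like Usp9x itself (-0.52, adjusted p = 0.00633), while Ddx3x on the other side had a change of -0.01. Of the neighbours of Usp13, Mfn1 and Gnb4 were lower (-0.58 and -0.61), at 5 and 4 measured genes away. Actl6a, Mrpl47 and Ndufb5 in between had changes of -0.04, -0.06 and 0.04. The neighbours of Usp3 included Snx1, which was lower (-0.45), and Ciao2a, which was higher (0.505), also 5 and 4 genes away. Dapk2, Herc1 and Fbxl22 in between had changes of 0.12, 0.01 and -0.01 and did not pass. On the other side of Usp3 the adjacent gene, Car12, had a change of -0.40 (adjusted p = 0.0678). Aph1b, Aph1c, Rab8b and Rps27l beyond Car12 had changes of -0.04, -0.33, -0.29 and 0.12 and did not pass either. The smallest adjusted p among the 10 neighbours was 0.0576 around Usp46 and 0.4 around Usp44, and changes there ran from -0.26 to 0.27 and from -0.18 to 0.14.

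**Figure D4:**
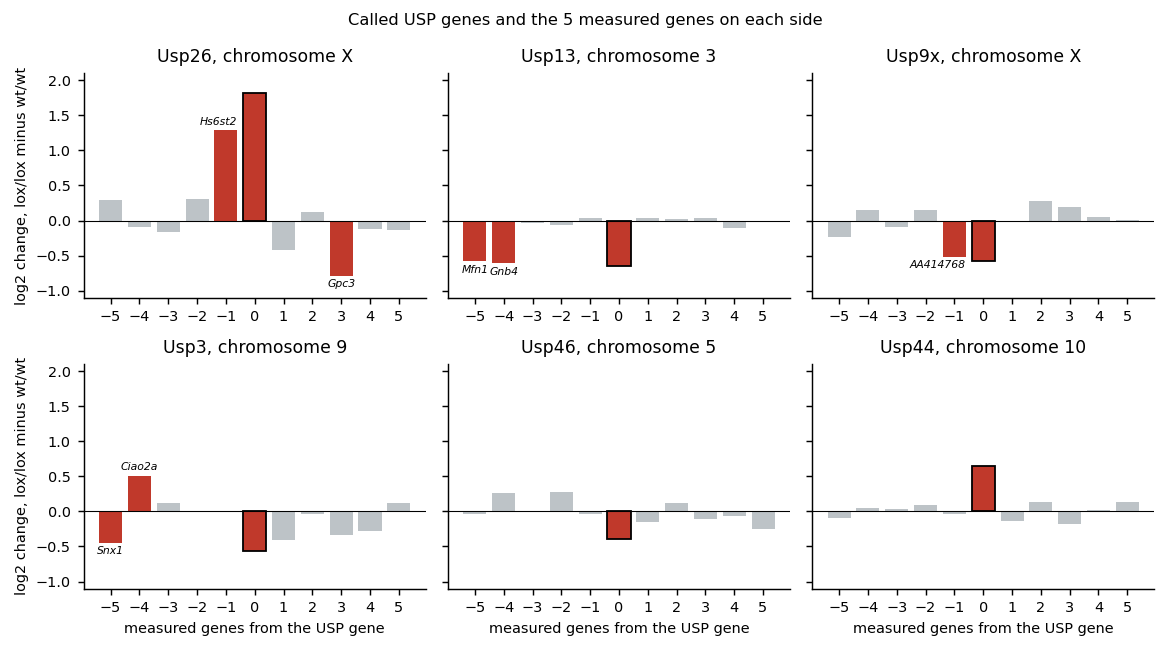
Log2 change (lox/lox minus wt/wt, vertical axis) of each called USP gene (outlined bar) and the 5 measured genes on each side in chromosome order (horizontal axis), red where the adjusted p was under 0.05. Of the 60 neighbours 7 are red, among them the gene on the left of Usp26 (higher) and of Usp9x (lower), while the genes on their right are grey.

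The X chromosome holds 5 members. Usp26 was higher, Usp9x was lower, and Usp11, Usp27x and Usp51 did not pass. Of 742 measured X-linked genes 26 were higher and 33 lower (7.95%, beside 6.16% of all genes), with a median change of -0.012. Among the 41 autosomal members 1 was higher and 3 were lower (9.76%), beside 6.16% of all genes and 10.0% of those with a mean above 4.90. The latter share is not a like background, as the autosomal members include genes below that mean, the called Usp44 among them.

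The remaining member of the family, Usp49, an H2B deubiquitinase, shares its probe set with Med20, a Mediator subunit, so the signal cannot be assigned to either gene. It was read in a fit over all 35556 probe sets, of which 2.27% passed. The lox/lox arrays stood at 4.93, 5.08 and 5.47 for replicates 1 to 3, all below the wt/wt arrays at 6.02, 6.08 and 6.11. The change was -0.91 (SE 0.14, adjusted p = 0.0283). The antisense gene Usp46os2 had a change of -0.15 (adjusted p = 0.569), on the same side of 0 as Usp46.

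Deubiquitinases of the other families were read beside the USPs. Of 34 measured, 2 were higher and 1 was lower (8.82%), with a median change of 0.005. The share called was 6.16% over all genes and 10.0% over those with a mean above 4.90, and 33 of the 34 lay above the array median in wt/wt cells. Otud1, an OTU family enzyme, read 6.71, 7.15 and 7.02 in wt/wt and 6.31, 6.25 and 6.34 in lox/lox replicates 1 to 3. All lox/lox arrays lay below wt/wt, and the change of -0.66 (SE 0.11, adjusted p = 0.00575) passed in each fit without an array. Uchl1, a ubiquitin hydrolase abundant in neurons and germ cells, was higher by 0.41 (adjusted p = 0.045), and Stambpl1, an endosomal enzyme that cuts chains linked through lysine 63, by 0.33 (adjusted p = 0.0248). Each of these passed in only 1 of the 6 fits without an array. The proteasome and signalosome subunits Psmd14 and Cops5 had changes of 0.01 and 0.01, and the H2A deubiquitinases Bap1 and Mysm1 of 0.02 and -0.04.

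Of 30 measured partners, substrates and ubiquitin genes, 4 were higher and 3 lower (23.3%, beside 6.16% of all genes), with a median of -0.023. The list held genes already known to differ, Myc and Ubd among them, so its count is no independent evidence. Ubd, a ubiquitin-like modifier that directs proteins to the proteasome, read 3.95 to 4.03 in wt/wt and 5.83 to 6.40 in lox/lox cells, a change of 2.14 that exceeded that of Usp26.

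**Figure D5:**
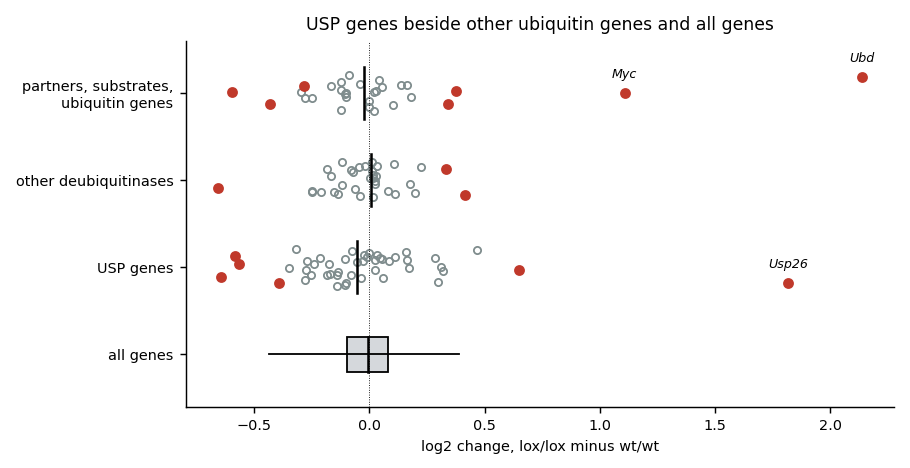
Log2 change (lox/lox minus wt/wt, horizontal axis) of the 47 USP genes, 34 other deubiquitinase genes and 30 partners, substrates and ubiquitin genes, each gene a circle, filled red where called, with a bar at the median, above a box (quartiles) and line (central 95%) for all genes. The medians lie near 0, and Usp26, Myc and Ubd lie far to the right.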

How the data were processed

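The authors deposited log2 values of 35556 probe sets on 6 arrays, made with RMA and affy per the submitters' processing notes. Their versions and options, and the genome build, were not given in the sources used here. RMA brings the arrays to a like distribution (medians of 4.85 to 4.94 here), so an overall change of RNA per cell cannot be seen. Symbols came from the platform annotation of the array (21789 with 1 symbol, 1621 with several, 12146 unnamed here), and genes were ordered by the GRCm38.p6 gene table. Each gene was read from its probe set with the highest mean.

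A linear model of genotype was fitted over 19938 genes in R 4.3.3 with lmFit and eBayes of limma 3.58.1 (6.14 prior and 4 residual degrees of freedom). The design text calls the 3 samples of each genotype biological replicates. The code was tested on simulated data. The members and lists were chosen with earlier results of these data known. Named with their tests were members with an adjusted or unadjusted p under 0.05, Usp7, Usp9y, Usp22, Usp28, Usp37 and Rad21, and called genes of the other lists, up to 8 each. Other genes are a description. Same-numbered arrays did not deviate together (correlations of 0.101, -0.228 and -0.103), so the numbers were not taken as pairs.

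Alternatives were 3 normalizations, removal of 8519 dim genes, other uses of probe sets, trended robust variances, array weights, a replicate block, each array left out, and an adjusted p under 0.01.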

Additional observations from a re-analysis of the deposited data

How the results depend on the processing

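Precision is limited by 3 arrays per genotype and by signal below the array median in Usp43, Usp51, Usp35, Usp50 and Usp9y. In Usp44 and Usp25 it is limited by such signal in wt/wt cells. The 6 USP genes of the report were also called under quantile normalization, median centring, cyclic loess, every probe set tested alone, the mean of probe sets, trend and robust, array weights and the replicate block, joined by Usp28 after quantile normalization and cyclic loess, by Usp1, Usp28 and Usp37 with trend and robust, and by Usp1, Usp2 and Usp37 with array weights. With dim genes removed 10 were called, 5 of them among the 6. With the replicate number as a block, 6 USP genes were called, 2 higher and 4 lower, while all genes called went from 1228 to 1086, higher deubiquitinases of other families from 2 to 0 and higher partner genes from 4 to 2. Only 1 of the 6 arrays deviated most like the array of its own number, so the numbers were used as names of arrays only. With 3 arrays per genotype this check cannot exclude that same-numbered cultures were handled together.

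The higher USP genes numbered 4 with dim genes removed, where Usp44 was not tested and Usp2, Usp25 and Usp28 passed, and 1 at an adjusted p under 0.01 or without both arrays that stood apart. Usp25 stayed in the fit without dim genes only through its lox/lox level. Lower USP genes numbered 2 at an adjusted p under 0.01. With each array left out in turn the higher USP genes ranged from 1 to 3 and the lower from 2 to 5. Other deubiquitinases that were higher numbered 1 after median centring, with every probe set or with trend and robust, and 0 at an adjusted p under 0.01 or without both arrays, and those that were lower numbered 2 with every probe set. They ranged from 0 to 1 and from 1 to 1 with an array left out. Higher partner genes numbered 2 at an adjusted p under 0.01 or without both arrays, and the lower 1 at an adjusted p under 0.01. They ranged from 2 to 3 and from 1 to 2 with an array left out. All genes called numbered 553 at an adjusted p under 0.01, 697 without both arrays, and 626 to 1132 with an array left out. Beyond fewer arrays or another threshold, the cause was not tested.

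Of 524 values of named genes under an alternative, 435 kept direction and side of the threshold, 64 lost a call, 16 gained one and 9 changed sign. The last were all of genes near 0. Usp22 read 0.0227 after quantile normalization, 0.0165 after cyclic loess, 0.0078 with array weights, and from -0.0549 to 0.0224 with an array left out, and Usp9y from -0.0491 to 0.159 with an array left out.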
